A study of Arabidopsis thaliana with 12 samples.

Results

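Loss of the chromatin remodeller BRM was read here in Arabidopsis seedlings that already lacked normal expression of 3 bromodomain genes. The comparison set the brm-1 brd1,2,13 mutant, called the combined mutant below, against the brd1,2,13 mutant. Its members were all gene records of the deposited table whose status for this pair was OK, 19186 of 31837 records. RNA came from whole 14-day-old seedlings of the Col-0 ecotype grown in long days, with 3 libraries for each of 4 genotypes. These were WT (Col-0 without the mutations), brm-1 alone, brd1,2,13 alone, and plants with all of these mutations, brm-1 brd1,2,13. All groups share the ecotype, age and growth conditions, and both sides of the main comparison carry the brd1,2,13 mutations. The labels name the mutants only by these genotype symbols and do not describe the alleles or say whether libraries came from separate plantings.

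BRM is the motor subunit of a class of plant SWI/SNF remodellers, which use ATP to move or evict nucleosomes and so change the access of transcription factors to DNA. BRD1, BRD2 and BRD13 are bromodomain proteins of the BRM-containing complexes. Bromodomains bind acetylated lysines, a modification found on the histones of active genes. In Arabidopsis, BRM is known for roles in hormone responses, leaf and flower development and the passage from the juvenile to the adult phase.

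Each genotype had 1 level per record, an FPKM value, a fragment density scaled for transcript length and library depth and estimated over the 3 libraries together. No value per library was used, so the spread between replicates is unknown, the depth is unknown, and no test of any difference was made. Differences are given as the log2 ratio of FPKM + 0.1, which understates the change of genes with low values. A record was called when this ratio was at least 1 in size, a change of at least 2-fold, and when the mean FPKM of the pair was at least 1. These calls describe the size of a difference between pooled levels and not its significance. A record under 1 FPKM in 1 genotype of the pair passed this level filter only through the other, which set its direction. Genes are named by a fixed rule of size, and those outside it are said to be chosen after their values were seen. The members of a list that moved against its other members, namely XTH31, DIN2, ABF2, BBX20 and SPL3, were also chosen in that way. Because whole seedlings were used, fewer cells of a type and less RNA per cell cannot be told apart.

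The mutated genes were checked first. BRM (AT2G46020, chr2:18922528-18934088, TAIR10) had an FPKM of 17.5 in WT, 0.0954 in brm-1, 18.5 in brd1,2,13 and 0.12 when both sets of mutations were present. Both genotypes labelled brm-1 were thus far below both others, with a log2 ratio for BRM of -6.40 in the brd1,2,13 background and -6.49 in WT. The locus of BRM in the table overlaps the record of UBC6, a ubiquitin-conjugating enzyme gene, which was at 56.8 FPKM in brd1,2,13 and 50.9 with BRM also lost. BRD1 (AT1G20670, chr1:7164166-7168166) was at 12.7 in WT, 15.7 in brm-1, 4.36 in brd1,2,13 and 4.76 in the combined mutant. For BRD2 (AT1G76380, chr1:28651102-28654580) the levels were 7.04, 22.5, 3.05 and 3.08 FPKM in the same order. BRD13 (AT5G55040, chr5:22327173-22331840) fell under the level filter, with 14.4 in WT, 18.7 in brm-1, 0.223 in brd1,2,13 and 0.0194 with BRM also lost. BRD13 transcript was therefore nearly gone in both brd1,2,13 genotypes, while BRD1 and BRD2 transcripts were lower there but still present. The levels of BRD1 and BRD2 were within 1.25-fold of each other between the 2 genotypes of the main comparison. The reference annotates these 3 loci only as bromodomain proteins, and their pairing with the names BRD1, BRD2 and BRD13 rests on background knowledge.

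The seedling origin was checked with defining markers. RBCS1A, a Rubisco small subunit, was at 15606 FPKM in brd1,2,13 and 15640 with BRM also lost, and LHCB1.3, a light-harvesting protein, at 13099 and 12288. CASP1, a marker of the root endodermis, was at 8.60 and 8.98 FPKM, so root was present in both. OLEO1, an oil body protein of seeds, was listed at 0 in both, and AP3, a gene of petals and stamens, was at 0.135 and 0.11 FPKM.

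Of the 19186 records, 17642 reached a mean of 1 FPKM. Among these, 878 records were at least 2-fold higher in the combined mutant than in brd1,2,13, or 4.98%, and 873 were at least 2-fold lower, or 4.95%. The numbers of higher and lower records were thus nearly equal, and the median log2 ratio over all records compared was -0.0026. At 4-fold, 196 records were higher and 142 lower. Most records moved little, with quartiles of -0.27 and 0.24, and 10366 of them (58.8%) lay within 1.25-fold. The share called in either direction was 17.1% among 4029 records with a mean FPKM of 1 to 5 and 5.61% among 1622 records at 100 or more. In 11 of the called records 1 genotype was listed at 0, and no fold is given for these. The records nearest the threshold had log2 ratios of 1.00 on either side of it in both directions.

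**Figure D1:**
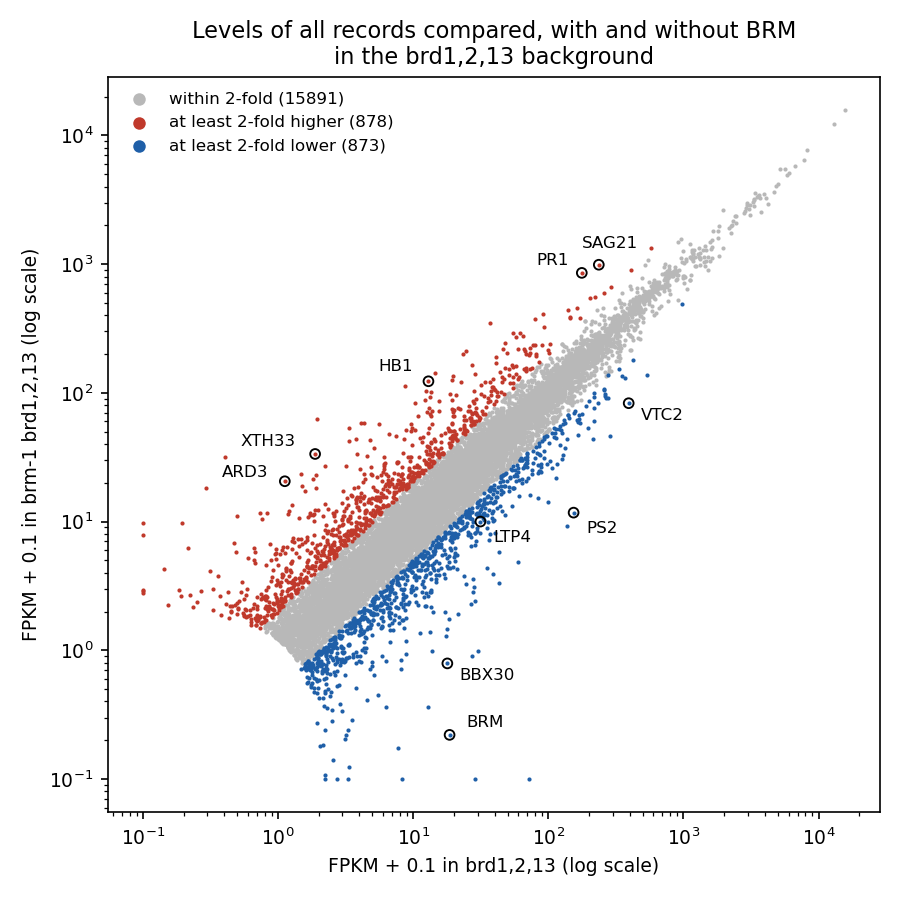
FPKM + 0.1 of every record compared in brd1,2,13 (x axis, log scale) and in brm-1 brd1,2,13 (y axis, log scale), 1 pooled value per genotype. The 878 records at least 2-fold higher are red and the 873 at least 2-fold lower are blue; BRM lies far below the diagonal at 18.5 against 0.12 FPKM.

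ARD3, an acireductone dioxygenase of the methionine salvage cycle, had the highest log2 ratio of the named records, 4.19, with 1.02 FPKM in brd1,2,13 and 20.4 in the combined mutant. XTH33, which encodes a xyloglucan endotransglucosylase/hydrolase of the cell wall, was at 1.78 and 33.4 FPKM (log2 ratio 4.15). FTM1, a stearoyl-acyl carrier protein desaturase, was at 4.01 and 57.7 FPKM (3.81). CML38, a calmodulin-like calcium sensor, was at 4.25 and 58.3 FPKM (3.75). In brm-1 over WT the log2 ratios were 4.14 for ARD3, 1.8 for XTH33, 2.43 for FTM1 and 4.0 for CML38.

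Further named records included defensin, ethylene synthesis and cell wall genes. The defensin LCR67 (PDF1.1) was at 3.67 and 43.7 FPKM across the pair, and PDF1.2c at 0.66 and 10.3, although the reads of PDF1.2c may be shared with near-identical copies. ACS11, an enzyme of ethylene synthesis, had a log2 ratio of 3.41. XTH25 followed the pattern of XTH33 with 1.40 and 18.7 FPKM (3.65). PHI-1, an EXORDIUM-like protein, was at 12.4 and 103 FPKM (3.04). By absolute change, the named records with the largest gains were SAG21, a LEA-like protein of senescent leaves, from 236 to 987 FPKM, and PR1, from 177 to 854 FPKM. ERD15, HR4 and the calmodulin-like gene TCH3 followed, with gains of 480, 317 and 297 FPKM.

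Genes of the low-oxygen response were higher as a group. Plants sense low oxygen through the N-degron pathway, in which PCO enzymes oxidise ERF-VII transcription factors; when oxygen is short these factors persist and switch on fermentation. Of 10 members compared, 9 were at least 2-fold higher, 0 were lower, and the median log2 ratio was 2.84, against 1.75 for the same genes in brm-1 over WT. Over all records, 4.98% were higher and 4.95% lower. PDC1, pyruvate decarboxylase, was at 3.26 FPKM in brd1,2,13 and 52.9 in the combined mutant (3.98), while PCO2 was at 1.47 and 17.3 (3.47). ADH1, alcohol dehydrogenase, was at 14.3 and 143 FPKM (3.31). The loci of PDC1 and ADH1 overlap other records, so their values are uncertain. HB1, a haemoglobin that scavenges nitric oxide, was at 24.7 FPKM in WT, 63.1 in brm-1, 12.9 in brd1,2,13 and 123 in the combined mutant. Its level in the combined mutant was thus the highest of the 4 and that in brd1,2,13 the lowest. The transcription factor genes HRE1 and HRE2 and the sucrose synthase gene SUS4, chosen after their values were seen, had log2 ratios of 2.83, 2.45 and 2.42.

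Jasmonate genes were also higher as a group. Jasmonate signalling turns on when JAZ repressors are degraded, and the JAZ genes are themselves induced by the hormone. Here 18 of 30 members were at least 2-fold higher and 2 lower, with a median of 1.24 beside 1.64 in brm-1 over WT. Shares over all records were 4.98% higher and 4.95% lower. TAT3, a tyrosine aminotransferase, was at 5.54 FPKM in WT, 40.8 in brm-1, 5.49 in brd1,2,13 and 57.2 in the combined mutant (log2 ratio 3.36). CYP94C1, which oxidises the active jasmonate, was at 1.11 and 12 FPKM across the pair (3.32), and the repressor gene JAZ10 at 3.72 and 33.3 (3.13). The 2 lower members, named after their values were seen, were the vegetative storage protein genes VSP1 (8.90 and 3.65 FPKM) and VSP2 (23.9 and 8.97 FPKM).

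The salicylic acid and immunity list held 18 compared members, of which 10 were higher, 0 lower and all 18 above 0, with a median of 1.14 beside 1.52 in brm-1 over WT. PR2 (BGL2), a beta-1,3-glucanase, was at 23.9 FPKM in WT, 30.9 in brm-1, 19.4 in brd1,2,13 and 126 in the combined mutant. PR2 was therefore highest in the combined mutant, and the other 3 genotypes lay close together, while PR1 was at 53.8, 293, 177 and 854 FPKM and so was above WT in every mutant. SARD1, a transcription factor that activates salicylic acid synthesis, was at 2.51 and 11.3 FPKM across the pair (2.12), with a locus that overlaps another record. In families formed from the gene symbols after the values were seen, 9 of 20 CRK genes (cysteine-rich receptor-like kinases), 11 of 28 RLP genes (receptor-like proteins) and 9 of 45 WRKY transcription factor genes were at least 2-fold higher, and 0 of each were lower. The share higher was 4.98% over all records, and these 3 families were picked from 86 for their counts.

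Energy, nitrogen and cell wall lists were mixed but held more higher than lower members. Among all records, 4.98% were higher and 4.95% lower. In the list of dark-inducible and energy starvation genes, 5 of 12 were higher and 1 lower (median 0.97). ASN1, a glutamine-dependent asparagine synthetase induced in darkness, was at 24.4 FPKM in brd1,2,13 and 211 in the combined mutant (3.10). DIN10 was at 54.7 and 294 (2.42, overlapping another record) and SEN1 at 47.4 and 245 (2.37). The lower member, DIN2, was at 1.57 and 0.718 FPKM. Of 17 nitrogen genes, 5 were higher and 1 lower. The nitrate transporter NRT1.8 (2.60 and 11.9 FPKM) and the glutamate dehydrogenase GDH1 (33.6 and 121) were higher, both with overlapping loci, and the ammonium transporter AMT1;2 was lower (28.4 and 8.12). In the XTH list, 7 of 17 were higher and 1, XTH31, was lower, at 169 and 62.4 FPKM (median 0.95). Over 24 XTH genes grouped by symbol after the values were seen, 7 were higher and 2 lower, and the median was only 0.06. Touch and wounding genes were higher in 5 of 12, led by CML38 and TCH3.

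**Figure D2:**
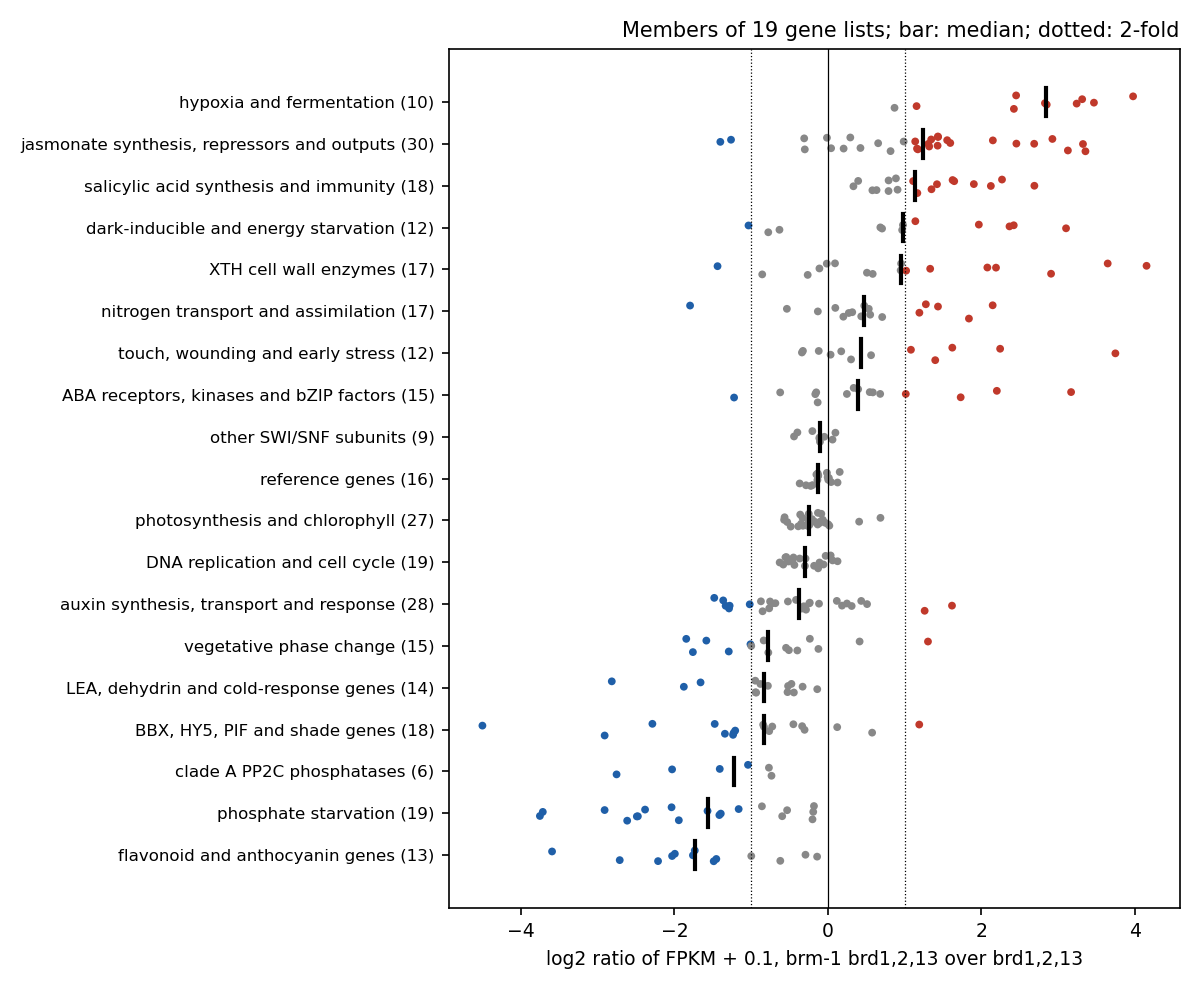
The log2 ratio of the combined mutant over brd1,2,13 (x axis) for each compared member of 19 gene lists (rows, number of members in brackets), with the median as a bar and called members in red (higher) or blue (lower). The hypoxia list has the highest median, 2.84, and the flavonoid list the lowest, -1.73, while reference genes lie between the dotted 2-fold lines.

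Phosphate starvation genes were lower as a group. When phosphate is short, plants induce acid phosphatases, phosphate transporters of the PHT1 family, enzymes that replace phospholipids by galactolipids and sulfolipids, and the noncoding RNA IPS1. Of 19 members compared, 13 were at least 2-fold lower in the combined mutant than in brd1,2,13, 0 were higher and all 19 were below 0. The median log2 ratio was -1.57, beside -0.55 for BRM loss in WT. Over all records, 4.95% were lower. PS2, a phosphatase induced by phosphate starvation, was at 30.9 FPKM in WT, 19.6 in brm-1, 154 in brd1,2,13 and 11.6 in the combined mutant. PEPC1, a phosphoethanolamine and phosphocholine phosphatase, had the same order of genotypes, with 27.6, 17.1, 138 and 9.14 FPKM. For both genes brd1,2,13 was the highest of the 4 genotypes and the combined mutant the lowest.

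The purple acid phosphatase PAP14 was at 10.8 FPKM in WT, 3.69 in brm-1, 17.4 in brd1,2,13 and 1.2 in the combined mutant (log2 ratio -3.75). MGD3 (listed as MGDC in the reference), a galactolipid synthase, was at 15.6, 9.01, 43.2 and 5.66 FPKM (-2.91). The transporter PHT1;5 was at 1.04, 2.44, 12.2 and 2.09 FPKM (-2.49), and IPS1 at 34.8, 34.5, 84.2 and 15.1 (-2.48). IPS1, PS2 and MGD3 were thus raised in brd1,2,13 over WT, by log2 ratios of 1.27, 2.31 and 1.46, and below WT in the combined mutant. Over the list, the median of brd1,2,13 over WT was 0.66 and that of the combined mutant over WT -1.06. These last values share the brd1,2,13 libraries with the main comparison, so they are given side by side only. Of the genes that the reference annotates as purple acid phosphatases, a group formed after the values were seen, 18 were compared. In this group 9 were lower and 0 higher, beside 4.95% lower of all records. PAP5, PAP16, PAP22 and PAP24 were under 1 FPKM in the combined mutant. They passed the level filter only through brd1,2,13, so no conclusion is drawn from this count. PAP5 was at 0.292 FPKM in WT, 0.03 in brm-1, 3.25 in brd1,2,13 and 0.0245 in the combined mutant, while PAP22 was at 1.28, 0.884, 4.85 and 0.65.

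Primary transcripts of microRNA genes that act in phosphate starvation were picked out after their values were seen. miR399 silences PHO2, a brake on phosphate uptake, and IPS1 sequesters miR399. MIR399d was at 0.366 FPKM in WT, 0.0553 in brm-1, 7.62 in brd1,2,13 and 0.0737 in the combined mutant. MIR399c was at 0.387, 0.256, 2.42 and 0.181 FPKM, and MIR827 at 1.04, 0.297, 2.32 and 0.338. Of 326 annotated miRNA genes only 19 were compared, of which 8 were lower and 0 higher, beside 4.95% lower of all records. MIR399d, MIR399c, MIR827, MIR171c and MIR159b were under 1 FPKM in the combined mutant. They passed the level filter only through brd1,2,13, which set their lower direction. No conclusion is drawn from that direction or from this count. MIR156c, whose product keeps shoots juvenile by silencing SPL genes, was at 5.23 and 2.55 FPKM across the pair (-1.01). These are fragments of precursor transcripts, and mature miRNAs were not measured. The mature sequences from RefSeq (TAIR10.1) are shown because the 2 miR399 forms share their seed, bases 2 to 8 in capitals, and differ from the others.
miR399c-3p: uGCCAAAGgagaguugcccug
miR399d: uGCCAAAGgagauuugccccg
miR827: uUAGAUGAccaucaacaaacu
miR156c-5p: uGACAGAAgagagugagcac
Over their whole length miR399c-3p and miR399d differed at 2 bases.

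Flavonoid genes were lower as a group as well. The pathway runs from chalcone synthase to anthocyanins and is switched on by MYB factors of the PAP1 type. Of 13 members compared, 9 were lower, 0 higher and all 13 below 0, with a median of -1.73 beside -1.67 in brm-1 over WT. Among all records, 4.95% were lower. The activators PAP2 (MYB90) and PAP1 (MYB75) were at 17.596 and 1.37 FPKM (-3.59) and at 5.8 and 0.8 FPKM (-2.71) across the pair. DFR, dihydroflavonol reductase, was at 21.2 FPKM in WT, 1.84 in brm-1, 11.8 in brd1,2,13 and 2.48 in the combined mutant. Both genotypes without BRM were below both genotypes with it for DFR.

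Light signalling, clock and phase change genes held more lower than higher members. Shares over all records were 4.98% higher and 4.95% lower. Of 18 genes of the BBX, HY5, PIF and shade list, 8 were lower and 1 higher (median -0.84). BBX30, a B-box microprotein, had a log2 ratio of -4.50. After BRM itself this was the lowest among the genes named by rule at a mean of 5 FPKM or more. BBX30 was at 9.94 FPKM in WT, 1.2 in brm-1, 17.8 in brd1,2,13 and 0.691 in the combined mutant. BBX32 (8.76 and 1.08 FPKM) and BBX31 (8.36 and 1.63) followed, and BBX18, outside the list, was at 40.3 and 8.04. The higher member was BBX20 (1.38 and 3.29). Among 8 clock genes, 4 were lower and 1 higher. PRR9, a repressor of the morning genes, was at 23.5 and 3.66 FPKM (-2.65), RVE1 at 21.1 and 7.43 (-1.49), and LUX, the higher one, at 2.37 and 5.97 with an overlapping locus. The hour of harvest is unknown here. In the phase change list, 5 of 15 were lower and 1 higher. The lower genes were led by SNZ (20.5 and 5.62 FPKM), SPL9 (9.47 and 2.73) and SMZ (5.85 and 1.88, overlapping), and the higher one was SPL3 (4.21 and 10.5, overlapping). SPL9 and SPL3, both targets of miR156, thus went in opposite directions. Of 14 SPL genes grouped by symbol after the values were seen, 1 was higher and 1 lower (median -0.29).

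Genes of the abscisic acid (ABA) pathway went both ways, while 4.98% of all records were higher and 4.95% lower. ABA binds PYL receptors, which then inhibit the clade A PP2C phosphatases and free SnRK2 kinases to activate bZIP factors. Of 8 receptor genes compared, 3 were at least 2-fold higher and 2 were below 0. PYL6 was at 6.88 FPKM in WT, 34.1 in brm-1, 4.67 in brd1,2,13 and 42.8 in the combined mutant. PYL5 was at 20.7 and 95.6 FPKM across the pair and PYL4 at 43.5 and 145. PYL9, chosen after its values were seen, was at 22.8 and 14.8 FPKM (-0.62). In the whole list of receptors, kinases and bZIP factors, 4 of 15 were higher and 1 lower. The fourth higher member was the bZIP factor gene ABI5 (0.799 and 1.72 FPKM, chosen after its values were seen), and the lower one was ABF2, also a bZIP factor gene (33.4 and 14.3 FPKM). Of the 6 PP2C genes compared, 4 were lower, 0 higher and all 6 below 0, with a median of -1.22. HAI2 was at 0.343 FPKM in WT, 1.09 in brm-1, 4.72 in brd1,2,13 and 0.615 in the combined mutant. HAI2 thus passed the level filter only through brd1,2,13, and at a mean of at least 5 FPKM 3 PP2C genes were lower. HAI1 was at 1.76, 16.5, 29.0 and 7.02 FPKM. ABI1 was at 55.9, 41.1, 86.8 and 32.6 FPKM, with an overlapping locus. CYP707A2, an ABA hydroxylase, was at 12.9 and 2.55 FPKM across the pair (-2.29).

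All 14 compared late embryogenesis abundant (LEA), dehydrin and cold genes were below 0 in the combined mutant over brd1,2,13, with a median of -0.83. Of these 14, 3 were at least 2-fold lower (2 at a mean of at least 5 FPKM), beside 4.95% of all records. The same list had a median of 0.74 in brm-1 over WT, 1.25 in brd1,2,13 over WT and 0.33 in the combined mutant over WT, where 5 members were at least 2-fold above WT and 2 were below it. LEA7 was at 0.658 FPKM in WT, 45.4 in brm-1, 100 in brd1,2,13 and 14.1 in the combined mutant, with an overlapping locus. COR15A, a chloroplast protein of cold hardening, was at 5.75, 8.69, 15.9 and 4.25 FPKM. EM6 was at 0.0954, 1.05, 1.8 and 0.503 FPKM, and so passed the level filter only through brd1,2,13. GolS2, which makes galactinol, was at 13.3 and 1.28 FPKM across the pair (-3.27).

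Auxin, gibberellin, iron and inositol lists held members in both directions, while 4.98% of all records were higher and 4.95% lower. Of 28 auxin genes, 6 were lower and 2 higher, and the share lower was 21.4% beside 4.95% of all records. GH3.3, which conjugates auxin, was at 6.53 and 20.3 FPKM, while SAUR24 (27.8 and 9.89) and SAUR21 (29.8 and 11.5) were lower. In the gibberellin list 3 of 18 (16.7%) were lower and 1 higher, with the biosynthetic genes GA20OX1 (4.44 and 1.35 FPKM) and GA3OX1 (19.3 and 7.96) and the repressor gene RGL2 (3.58 and 1.45) as the lower members. Iron genes went both ways, 3 of 11 higher and 2 lower, with BHLH101 at 2.4 and 0.244 FPKM and NAS4 at 14.3 and 4.08. In the inositol list 2 of 6 were higher and 2 lower. The synthase gene MIPS1 was at 219 and 60.3 FPKM (-1.86), and the oxygenase genes MIOX4 (0.57 and 5.70) and MIOX2 (13.0 and 76.5) were higher. The largest losses in FPKM among the named records were VTC2, the key enzyme of ascorbate synthesis, from 393 to 82.9, DR4 from 422 to 178, and the methionine cycle enzymes MS2, from 353 to 136, and SAHH2, from 331 to 153. MLP34 was at 279 and 91.2 FPKM and MLP328 at 114 and 21.5.

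Several lists held no called member. These were photosynthesis and chlorophyll (27 compared, median -0.24), DNA replication and the cell cycle (19, -0.30), Polycomb genes with H3K27 demethylases (8, -0.05), reference genes (16, -0.13), SWI/SNF subunits other than those mutated (9, -0.11), type-A ARR regulators (8, -0.15) and meristem and boundary genes (7, -0.41). CHR23 and CHR12, ATPases related to BRM, had log2 ratios of -0.44 and -0.40. In the photosynthesis list 23 of 27 members were below 0, with LHCB2.1 at 4214 and 2919 FPKM, although this gene may share reads with a close copy. None of the 7 chloroplast and 8 mitochondrial records compared was called. Floral organ genes were higher in 2 of 4: SEP3 was at 2.82, 23.4, 7.83 and 20.6 FPKM in WT, brm-1, brd1,2,13 and the combined mutant, and PI at 0.636, 2.78, 1.36 and 3.56. Among 12 flowering time genes, only AGL24 was called, at 8.07 and 3.92 FPKM. The remaining lists had at most 3 called members in all: brassinosteroid (1 lower of 10), aliphatic glucosinolates (2 lower of 14), lipid transfer proteins (1 lower of 6), root endodermis and root hair (1 lower of 16), heat shock (1 higher and 2 lower of 9) and seed genes (1 lower of 1). With 4.98% of all records higher and 4.95% lower, no conclusion is drawn from counts this small.

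**Figure D3:**
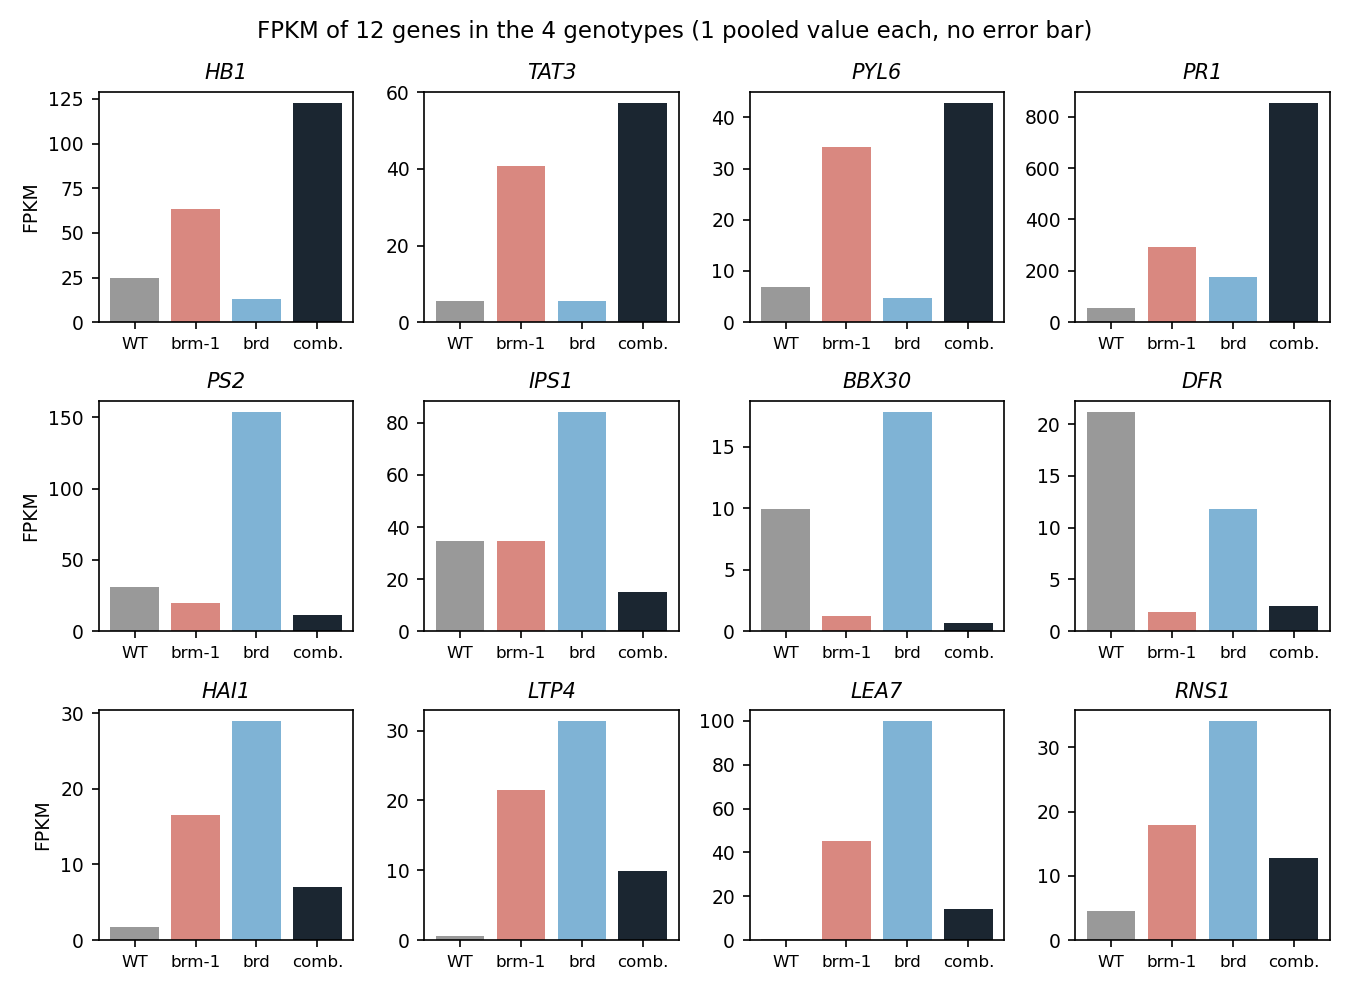
FPKM (y axis, linear from 0) of 12 genes in WT, brm-1, brd1,2,13 (brd) and brm-1 brd1,2,13 (comb.), 1 pooled value per bar and no error. In the top row the combined mutant is highest (HB1 123), in the middle row both genotypes without BRM lie below brd1,2,13, and in the bottom row brd1,2,13 is highest and WT lowest (HAI1 29.0 and 1.76).

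The effect of BRM loss could also be read in WT from brm-1, a comparison that shares no library with the one above. There, 1033 of 17580 records were at least 2-fold higher, or 5.88%, and 885 were lower, or 5.03%. Over the 17616 records with a mean of at least 1 FPKM over the 4 genotypes, the 2 log2 ratios had a Pearson correlation of 0.69 and a Spearman correlation of 0.71. This is a description across records, which are not independent replicates, and each genotype is 1 pooled value. Of the 863 records called higher here, 567 (65.7%) were also called higher in brm-1, which is 52.7% of the 1076 higher in brm-1. Of the 856 called lower here, 466 (54.4%) were also lower in brm-1, or 54.2% of the 859 lower there. Another 292 were higher and 342 lower here without a call in WT. A miss of the 2-fold line in 1 background does not show that the effects differ.

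The difference between the 2 effects was taken directly as the log2 ratio here minus that in WT. It was at least 1 for 356 records (2.02%) and at most -1 for 576 records (3.27%), so differences of this size were more often negative than positive. With 1 pooled value per genotype, this was not tested. Among the records with the most positive difference, AIR1, a proline-rich protein gene induced in auxin-treated roots, was at 22.8 FPKM in WT, 3.27 in brm-1, 3.15 in brd1,2,13 and 3.61 in the combined mutant (difference 2.95). AIR1 was thus low in every mutant and lay between 3.15 and 3.61 FPKM in them. PCC1 was at 66.5, 45.4, 20 and 73.5 FPKM (2.42). For PR2 the difference was 2.32, for XTH33 2.36 and for HB1 1.89. GSTF14 (9.56 and 57.1 FPKM across the pair), CRK6 (2.23 and 12.4) and the anion channel gene SLAH3 (9.44 and 31.8) had differences of 1.74, 1.71 and 1.67. SAUR26 and SAUR27 were lower in brm-1 than in WT, with log2 ratios of -1.99 and -2.17, but at -0.34 and -0.56 in the brd1,2,13 background.

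The most negative differences included genes that were high in both parent mutants. LTP4, a lipid transfer protein, was at 0.63 FPKM in WT, 21.5 in brm-1, 31.4 in brd1,2,13 and 9.89 in the combined mutant. BRM loss therefore gave LTP4 a log2 ratio of 4.89 in WT and -1.66 here, a difference of -6.55. Its neighbour LTP3 was at 4.28, 73.4, 87.3 and 51.0 FPKM (-4.84), and HAI1 had a difference of -5.19. JAZ7 was higher in both backgrounds, by 6.08 in WT and 2.69 here. ELI3-2, the ribonuclease gene RNS1 and the metal-binding protein gene HIPP22 had differences of -3.37, -3.37 and -3.06. DIP2 was at 2.88, 4.35, 26.9 and 2.19 FPKM, so high in brd1,2,13 alone (-4.13).

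Calls in opposite directions were nearly all of 1 kind. In 48 records the level was at least 2-fold lower here and at least 2-fold higher in brm-1 than in WT, while 4 records showed the reverse. They made up 5.61% of the records called lower here and 0.463% of those called higher. The 48 are records and not genes, as RAB18 has several among them. All 48 were at least 2-fold above WT in brd1,2,13, with a median log2 ratio of 2.86, and all 48 were above WT in the combined mutant, with a median of 1.05. The rule that picked the 48 used the same values and set the combined mutant at least 2-fold below brd1,2,13. With the combined mutant above WT, the 2-fold excess of brd1,2,13 over WT follows and is no separate result. In 45 of the 48 the combined mutant was below brm-1. Of the 48 records, 47 had their highest level in brd1,2,13, and the exception, CAT3, was highest in brm-1. All 48 lay between WT and brd1,2,13 in the combined mutant, where the place below brd1,2,13 was set by the rule. Genes among them, chosen after their values were seen, included MAPKKK18 (0.656, 1.76, 3.73 and 0.801 FPKM in WT, brm-1, brd1,2,13 and the combined mutant), NAC019 (6.2, 14.7, 24.4 and 11.8), the proline synthesis gene P5CS1 (75.4, 152, 262 and 97.6, overlapping another record) and the wax synthesis gene CER1 (11.5, 27.7, 30.0 and 14.1). LEA7, HAI1, HAI2, LTP4, PHT1;5, RNS1, HIPP22 and ELI3-2 belonged to the same 48. Whether the state of the brd1,2,13 plants at harvest bears on this was not tested.

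**Figure D4:**
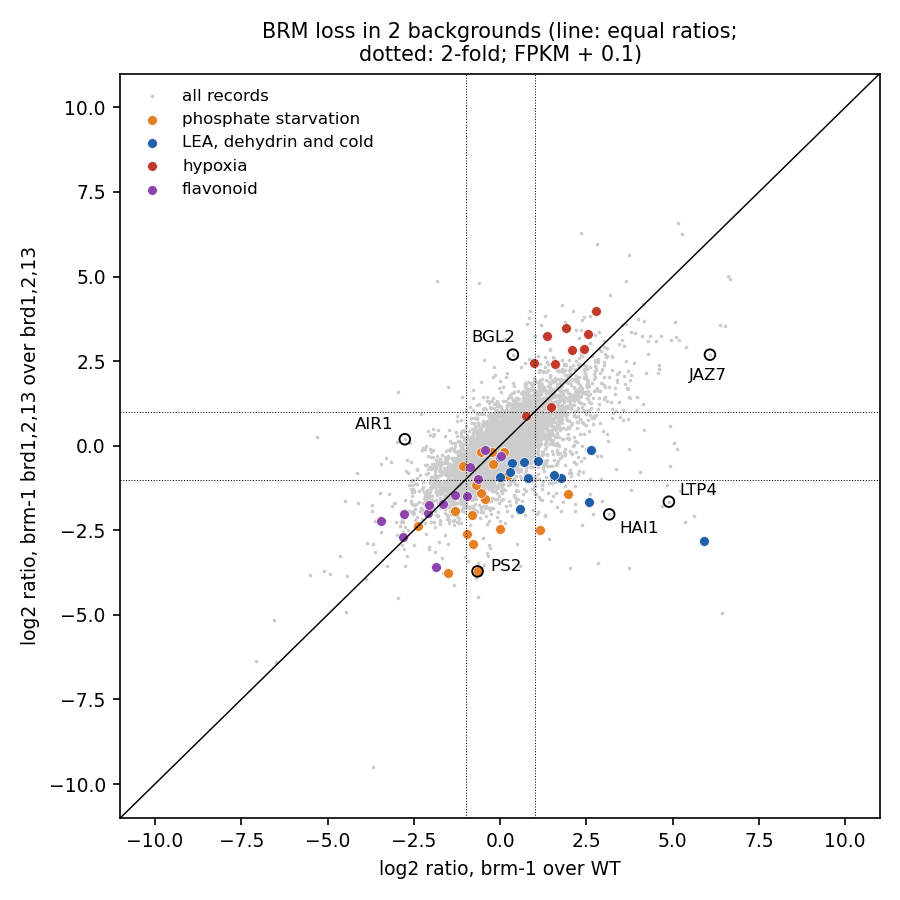
The log2 ratio of brm-1 over WT (x axis) and of the combined mutant over brd1,2,13 (y axis) for 17616 records, with the line of equal ratios and dotted 2-fold lines. Hypoxia genes lie near or above the line, most phosphate starvation genes below it, and LTP4 and HAI1 lie in the lower right, higher in brm-1 and lower here.

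The called records were also set against WT. Of the 878 higher records, brd1,2,13 was within 2-fold of WT in 733 (83.5%), and the combined mutant was at least 2-fold above WT in 719. Of the 873 lower records, brd1,2,13 was within 2-fold of WT in 689 (78.9%) and at least 2-fold above WT in 160, and the combined mutant was at least 2-fold below WT in 591. In 249 lower records (28.5%) the combined mutant was within 2-fold of WT. These values share the libraries of the pair and are given side by side only. A record near WT in brd1,2,13 that moves at least 2-fold tends to end away from WT through the call itself. The share of all records within 2-fold of WT is not given, so no conclusion is drawn from these counts.

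Called records were spread over the genome. The share called higher ran from 4.64% on chromosome 5 to 5.37% on chromosome 1, and the share called lower from 4.55% on chromosome 2 to 5.48% on chromosome 4. Among the 20 records on each side of BRM, 32 were compared and 0 were called, with log2 ratios from -0.88 to 0.44. Neighbouring records shared their direction more often than the overall share. After a higher record, the next non-overlapping record was also higher in 74 of 625 cases, 11.8% against 5.26% of all such records, and after a lower one also lower in 68 of 662, 10.3% against 5.57%. Tandem copies of a gene family count in these pairs, and their part was not tested. Genes called higher and lower had median locus lengths of 2294 and 2017 bases, shorter than the 2868 bases of all genes compared.

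Promoters offered a feature that the folds did not use. The 250 bases before the annotated gene start in RefSeq (TAIR10.1) were read for 15267 of the compared records, and each motif was searched on both strands. The W-box core TTGAC, the site of WRKY factors, was in 55.2% of the promoters of higher genes, 43.6% of those of lower genes and 45.2% of all. The G-box CACGTG was in 6.54%, 11.7% and 7.58%, and the ABRE core ACGTG, which every G-box contains, in 29.4%, 30.4% and 24.1%. The site I element TGGGCC, common in genes of ribosomes and cell division, was in 6.93% and 6.58% against 16.8% of all. For the CRT core CCGAC the shares were 10.8%, 15.2% and 13%, and for the evening element AAATATCT 7.19%, 6.34% and 5.23%. P1BS (GNATATNC), the site of the phosphate starvation factor PHR1, was searched after the values were seen and was in 7.32%, 9.44% and 5.71%. A match is a string of letters and no evidence of binding.

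Smaller sets had more uneven shares. Of the 45 promoters read for the 48 records with opposite calls, 27 (60%) held the ABRE core, 14 (31.1%) the G-box and 15 (33.3%) the CRT core. In the phosphate list 5 of 19 promoters (26.3%) held P1BS, and in the jasmonate list 18 of 30 (60%) held the ABRE core. P1BS was also in 21.4% of the LEA, 15.4% of the flavonoid and 13.3% of the jasmonate promoters, and in 0 of the hypoxia and salicylic acid lists. The W-box core was in 38.9% of the salicylic acid, 56.7% of the jasmonate and 60% of the hypoxia promoters, beside 45.2% of all. Below, 5 promoters of lower genes are shown, each of which holds the motif marked in it. Other named lower genes lacked it: MGD3 and PHT1;5 had no P1BS match, and HAI1 and LTP4 no ABRE core match. P1BS matches are in capitals for PS2, at chr1:27466349-27466598 (minus strand), and for PAP14, at chr2:19266457-19266706 (minus strand).
PS2: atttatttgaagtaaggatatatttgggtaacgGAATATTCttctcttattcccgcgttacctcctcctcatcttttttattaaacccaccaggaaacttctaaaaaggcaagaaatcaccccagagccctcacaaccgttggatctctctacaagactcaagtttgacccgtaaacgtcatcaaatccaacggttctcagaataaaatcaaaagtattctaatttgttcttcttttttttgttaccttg
PAP14: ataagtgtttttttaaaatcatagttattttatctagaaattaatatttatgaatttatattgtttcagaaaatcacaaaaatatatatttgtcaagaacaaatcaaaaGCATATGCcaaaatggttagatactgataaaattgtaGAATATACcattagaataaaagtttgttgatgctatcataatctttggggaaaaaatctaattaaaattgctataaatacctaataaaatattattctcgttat
ABRE core matches are in capitals for HAI2, at chr1:2282829-2283078 (minus strand), for LEA7, at chr1:19619474-19619723 (plus strand), and for RNS1, at chr2:873256-873505 (plus strand), which were all lower here and higher in brm-1 than in WT.
HAI2: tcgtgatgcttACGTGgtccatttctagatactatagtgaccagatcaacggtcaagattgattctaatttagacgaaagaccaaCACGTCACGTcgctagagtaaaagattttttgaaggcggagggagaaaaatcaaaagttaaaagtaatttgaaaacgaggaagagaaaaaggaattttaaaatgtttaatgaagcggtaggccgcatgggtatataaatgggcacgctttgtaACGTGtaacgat
LEA7: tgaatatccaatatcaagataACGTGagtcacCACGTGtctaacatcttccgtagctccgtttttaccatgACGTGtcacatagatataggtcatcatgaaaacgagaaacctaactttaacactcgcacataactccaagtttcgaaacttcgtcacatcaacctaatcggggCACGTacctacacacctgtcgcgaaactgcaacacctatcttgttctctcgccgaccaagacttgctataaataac
RNS1: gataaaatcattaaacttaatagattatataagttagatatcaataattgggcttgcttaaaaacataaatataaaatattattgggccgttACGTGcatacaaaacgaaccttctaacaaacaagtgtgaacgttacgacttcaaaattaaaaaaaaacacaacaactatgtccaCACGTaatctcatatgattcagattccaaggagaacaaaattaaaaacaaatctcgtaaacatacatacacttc
The log2 ratios of these genes across the pair were -3.72 for PS2, -3.75 for PAP14, -2.75 for HAI2, -2.82 for LEA7 and -1.41 for RNS1.

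**Figure D5:**
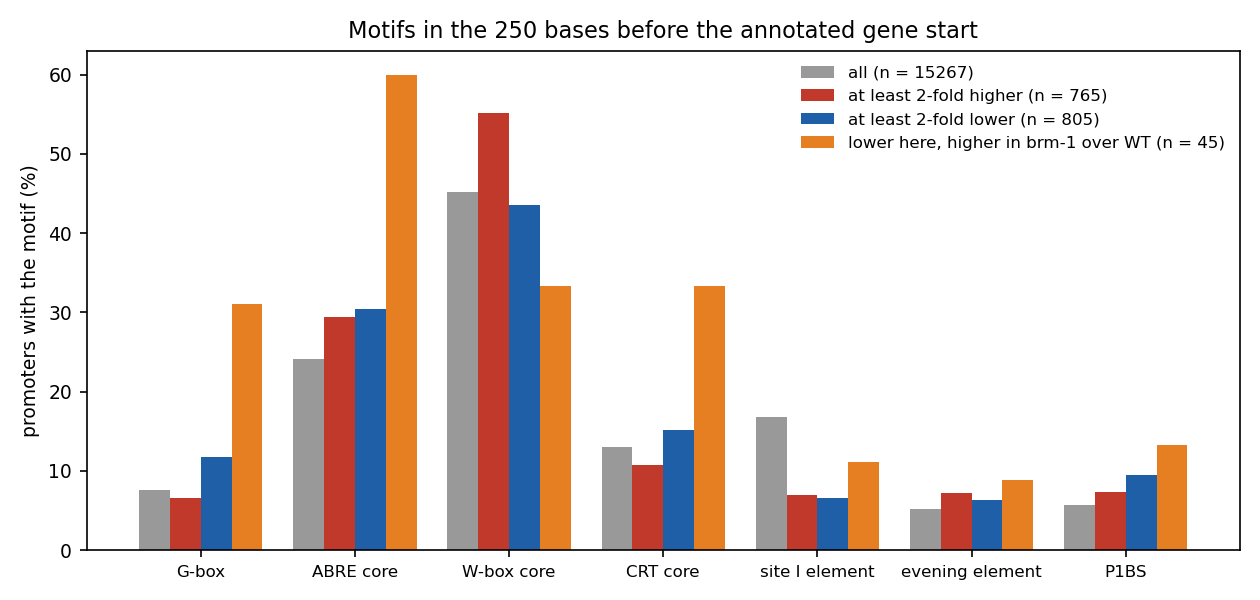
Share of promoters (y axis, %) that hold each of 7 motifs within 250 bases before the gene start, for all compared genes, higher genes, lower genes and the genes lower here but higher in brm-1 than in WT. The last set has the highest ABRE core share, 60%, and both called sets have a lower site I share than all promoters.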

How the data were processed

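RNA sequencing of 12 libraries (3 per genotype, total RNA of whole seedlings) was analysed from the authors' deposited Cuffdiff gene table of 191022 tests, which is 31837 records in 6 pairs of genotypes. In the submitters' processing notes the tools are Cuffdiff 2.1.1, TopHat and Cufflinks 2.1.1, and the build is TAIR10. The deposited FPKM values are 1 per genotype, pooled over libraries by the authors, with the scaling between libraries not given in the sources used here. Depth per library, and thus precision, is unknown. The table also holds the authors' own comparisons (log2 fold change, test statistic, p-value, q-value and a significance flag), which were not used.

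Records of the pair with status OK and a mean of at least 1 FPKM were compared by the log2 ratio of FPKM + 0.1, with calls at 2-fold. With 1 value per genotype no p-value can be had from samples. Among all records, 1944 join several genes and 7465 overlap another locus. Strand use is not given, so overlapping genes are uncertain. Loci carry the table's TAIR10 positions. Symbols came from RefSeq TAIR10.1, which holds 29057 of 29744 records of 1 gene. Promoters and mature miRNAs were read from its genome.

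The 35 gene lists (598 entries, 591 with a gene ID, 456 compared) and all other members were chosen with earlier results of these data known. Of the rest, 37 entries were under 1 FPKM, 49 had no OK status, 13 had several records and 36 were joined with other genes or absent. Named genes were records of 1 gene with a symbol and no overlap: the mutated genes, the 15 highest and 15 lowest log2 ratios at 5 FPKM or more, the 10 most positive and 10 most negative differences between backgrounds, the 5 largest gains and losses in FPKM, and in each list the 3 largest ratios, overlapping ones allowed. Alternatives were pseudocounts of 1 and none, other FPKM filters, all statuses, non-overlapping records, centring, another scaling, and calls at 1.5-fold and 4-fold. The fold and call steps were tested on simulated data. Python 3 with pandas and numpy was used.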

Additional observations from a re-analysis of the deposited data

Results flagged for a closer look

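Results were picked out where BRM loss moved a level past 2-fold in opposite directions in the brd1,2,13 and WT backgrounds. The difference between backgrounds was not tested, because each genotype has 1 pooled value. There were 48 records lower in the combined mutant than in brd1,2,13 and higher in brm-1 than in WT, and 4 with the reverse pattern. Among the genes named by rule, the difference of the 2 log2 ratios was -6.55 for LTP4, -5.19 for HAI1, -3.64 for PHT1;5, -3.37 for ELI3-2, -3.37 for RNS1 and -3.06 for HIPP22. The 4 reverse records were GSTU22 (WT 5.92, brm-1 2.00, brd1,2,13 1.64 and combined mutant 5.64 FPKM), SADHU3-2 (3.87, 1.76, 0.973 and 2.81), a joined record of AT5G15845 and AT5G15853, and AT2G35945, which is listed at 0 in brd1,2,13. All but SADHU3-2 overlap another record.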

How the results depend on the processing

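No paired analysis was possible because the table holds 1 pooled value per genotype and no column per library, and for the same reason no replicate could be left out. The count of records higher and lower, 878 and 873, was 562 and 501 at a mean of at least 5 FPKM, 1807 and 2017 at a 1.5-fold call and 196 and 142 at a 4-fold call. It was 582 higher among non-overlapping records of 1 gene. Differences between backgrounds, 356 more positive and 576 more negative, were 202 and 377 with a pseudocount of 1 and 149 and 273 at 5 FPKM, and 233 more positive in non-overlapping records. The 48 opposite records became 26 with a pseudocount of 1 and 22 at 5 FPKM. The 4 reverse records became 2 with a pseudocount of 1, 0 at 5 FPKM, 8 with all statuses and 1 without overlaps. The median of the salicylic acid list, 1.14, was 0.97 with a pseudocount of 1 and 0.91 at 5 FPKM. At a 1.5-fold call 8 LEA and cold genes and 2 XTH genes were lower. The 5 FPKM and non-overlap settings compared fewer records, and a pseudocount of 1 shrinks the ratios of records with low FPKM more than 0.1 does. Of 902 list counts and medians under the alternatives, 843 were rated the same, 31 weaker and 28 stronger. A count was rated the same within 1.5-fold of the main count, or when both were 0. A median was rated the same when it kept its side of 2-fold. The Pearson correlation of the 2 effects ran from 0.64 with all statuses to 0.75 at 5 FPKM. Of 471 log2 ratios of 59 named genes under the alternatives, 470 kept their side of 2-fold, and BRD13 did not with a pseudocount of 1 (-0.26). No scaling moved the median of all records by over 0.1. The main limit is that neither depth nor the spread between libraries is known, so genes of low FPKM, whose ratios spread most, are the least certain.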

Other observations

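Annotated transcribed pseudogenes were higher in 9 and lower in 6 of 60 records compared (15% and 10%), and lncRNA genes higher in 4 and lower in 6 of 90 (4.44% and 6.67%, beside 4.98% and 4.95% of all records). Of 64 MYB genes grouped by symbol, 3 were higher and 13 lower, of 103 CYP genes 7 were higher and 18 lower, and of 35 UGT genes 2 were higher and 8 lower. Of 21 ERF genes, 5 were higher and 0 lower. These families were picked after their values were seen. In brm-1 over WT, 13 of 14 SAUR genes were lower, while 6 of 14 were lower in the brd1,2,13 background.

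The catalase gene CAT3 appears in 2 records with the same locus. The record of CAT3 alone was at 0.316 FPKM in WT, 35.4 in brm-1, 30.0 in brd1,2,13 and 0.878 with BRM also lost, and had the lowest difference of the opposite records. The record that joins CAT3 with its neighbour was at 418, 1398, 905 and 1493 FPKM. How the estimates of the 2 records depend on each other was not tested.

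The miRNA gene MIR159b was at 16.1 FPKM in WT and 28.4 in brd1,2,13 but was listed at 0 in both genotypes without BRM, so no fold is given.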
